A study of Rattus norvegicus with 6 samples.

Results

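Probe sets for iron and heme handling genes were followed in rat liver after a single feeding period on a low-protein diet. The genes were chosen by name (Hamp, Tfrc, Tf, Slc40a1, Fth1, Hfe, Alas1, Alas2, Cp and Hpx), and a probe set, the group of probes that reports 1 transcript on an Affymetrix array, was taken where the array's annotation gave it exactly 1 symbol from that list. This gave 13 of the 31042 probe sets tested, for 8 of the 10 genes: 3 each for Slc40a1 and Cp, 2 for Tfrc, and 1 each for Hamp, Hfe, Alas1, Alas2 and Hpx. Tf and Fth1 had no such probe set, because those annotated to Tf (2) also carry Srprb and the single one annotated to Fth1 also carries a pseudogene, and they are not analysed here.

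The study compared 3 liver samples from rats given an isoenergetic low-protein diet (5P) with 3 from rats given the control diet (15P). All were male Wistar rats, 6 weeks old and about 150 g when bought, with no genetic alteration named in the labels. Each rat had 4 days of pellets and 4 days of training to eat the 15P diet between 10:00 and 18:00, then ate its own diet for 8 hours and was sampled after 16 hours without food. Both groups had therefore been fasted, and the comparison asks what a single low-protein feeding period left different in the fasted liver. The labels do not say that each array is a separate rat. The spread within each diet, against which the p-values set the difference, may therefore be technical.

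Iron circulates bound to transferrin (Tf), enters cells through the transferrin receptor (Tfrc), is held in ferritin (Fth1 is its heavy chain) and leaves cells only through ferroportin (Slc40a1), helped by the copper ferroxidase ceruloplasmin (Cp). The liver hormone hepcidin (Hamp) causes ferroportin to be degraded, and the membrane protein HFE (Hfe) helps hepatocytes sense iron and switch Hamp on. When iron in a cell is low, iron regulatory proteins bind stem-loops in the transcripts, which stabilises Tfrc RNA and blocks translation of ferritin RNA. Heme synthesis starts with 5-aminolevulinate synthase, encoded by Alas1 in most tissues, the liver included, and by Alas2 in developing red blood cells. Hemopexin (Hpx), a plasma protein made by hepatocytes, carries free heme back to the liver.

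The promoters of Hamp, Tfrc and Alas2 are shown because Hamp and Tfrc had the largest differences between diets and Alas2 is the erythroid gene of the set. Each run holds the 250 bases before the gene's start, 5′ to 3′ on the gene's strand, from RefSeq on build GRCr8: Hamp on the minus strand (chr1:95300272-95300521), Tfrc on the minus strand (chr11:81690319-81690568) and Alas2 on the plus strand (chrX:22895200-22895449). Capitals mark matches, on either strand, to 4 motifs: GATA factors (AGATAA, where the first letter may be T and the last may be G), STAT factors (TTCNNNGAA), the BMP response element (GGCGCC) and the ATF4 composite element (TGATGNAA).
Hamp: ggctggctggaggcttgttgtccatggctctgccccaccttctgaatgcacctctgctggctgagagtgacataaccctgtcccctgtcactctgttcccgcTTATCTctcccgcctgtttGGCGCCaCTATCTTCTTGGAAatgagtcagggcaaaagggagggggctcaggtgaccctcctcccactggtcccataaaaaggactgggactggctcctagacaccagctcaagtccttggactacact
Tfrc: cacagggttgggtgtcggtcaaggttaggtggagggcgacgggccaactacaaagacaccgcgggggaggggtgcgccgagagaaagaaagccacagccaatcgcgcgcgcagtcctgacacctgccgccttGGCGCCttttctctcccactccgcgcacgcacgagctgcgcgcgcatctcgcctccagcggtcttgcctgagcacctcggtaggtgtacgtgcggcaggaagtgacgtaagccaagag
Alas2: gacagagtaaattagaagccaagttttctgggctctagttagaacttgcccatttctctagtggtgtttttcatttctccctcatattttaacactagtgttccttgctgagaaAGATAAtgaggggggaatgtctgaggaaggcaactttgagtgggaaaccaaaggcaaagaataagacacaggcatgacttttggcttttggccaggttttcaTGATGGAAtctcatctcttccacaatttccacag

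The Hamp run holds the BMP element from 129 to 124 bases before the start, a STAT match from 117 to 109 bases before it, and GATA matches at 148 to 143 and 122 to 117 bases, the second of which shares its last base with the STAT match. The Tfrc run holds the BMP element alone. The Alas2 run holds a GATA match 136 to 131 bases before the start and an ATF4 match at 34 to 27 bases. Of 33469 promoter runs of the same length, 27.0% held the GATA motif, 8.69% the BMP element, 7.67% the STAT motif and 3.4% the ATF4 motif. Promoter sequences matched 8 of the 10 genes; Hfe and Fth1 had none in the table. Among the other 5 that matched, Alas1 held a STAT match, Hpx a GATA match, and Slc40a1, Cp and Tf no match to the 4 motifs.

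Intensities had been summarised by RMA, which corrects background, normalizes between arrays and gives 1 value per probe set, and they are given as log2 values, so that a difference of 1 is a doubling. Differences are low protein minus control, with the moderated standard error of limma, a linear model per probe set that borrows the spread of all probe sets. A call is a Benjamini-Hochberg adjusted p under 0.05 over all 31042 probe sets. Control replicate 3 stood apart: on the first principal component (36.9% of the variance) it scored -10.11, against 17.34 to 22.59 for the low-protein arrays and -26.91 and -22.45 for the other controls. Brightness differs between probe sets for reasons of probe design, so a brighter probe set is not read as a more abundant transcript. Summed marker intensities are weighted toward bright probe sets and are compared only between arrays.

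None of the 13 probe sets passed the test with all 6 arrays, where 0.132% of all probe sets passed (0.0354% higher and 0.0966% lower). Tfrc, the iron uptake receptor, came nearest, with RNA 2.16-fold higher in low-protein livers on both of its probe sets. Both passed when control replicate 3 was left out, where calls over all probe sets rose from 41 to 109. Neither passed with any other single array left out. Alas2 was higher and 1 of 3 Slc40a1 probe sets was lower on every low-protein array, by smaller amounts. Of the 3 Cp probe sets, 1 was higher (log2 difference 0.54) and 1 was lower (-0.20) on every low-protein array. Hamp averaged lower in low-protein livers, but 1 array set the size of that difference, and Hfe, Alas1 and Hpx had no difference beyond the spread between arrays. The arrays of the diets did not overlap for 6 of 13 probe sets (4 higher, 2 lower), against 21.6% of all probe sets (12.5% higher and 9.12% lower). An unadjusted p under 0.05 was reached by 5 of 13, against 15.4% of all probe sets. With each gene taken by its brightest probe set, 2 of 8 genes did not overlap, Tfrc and Alas2, against 22.9% of all genes. The median difference of the 13 was -0.03, and that of all probe sets 0.03.

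**Figure D1:**
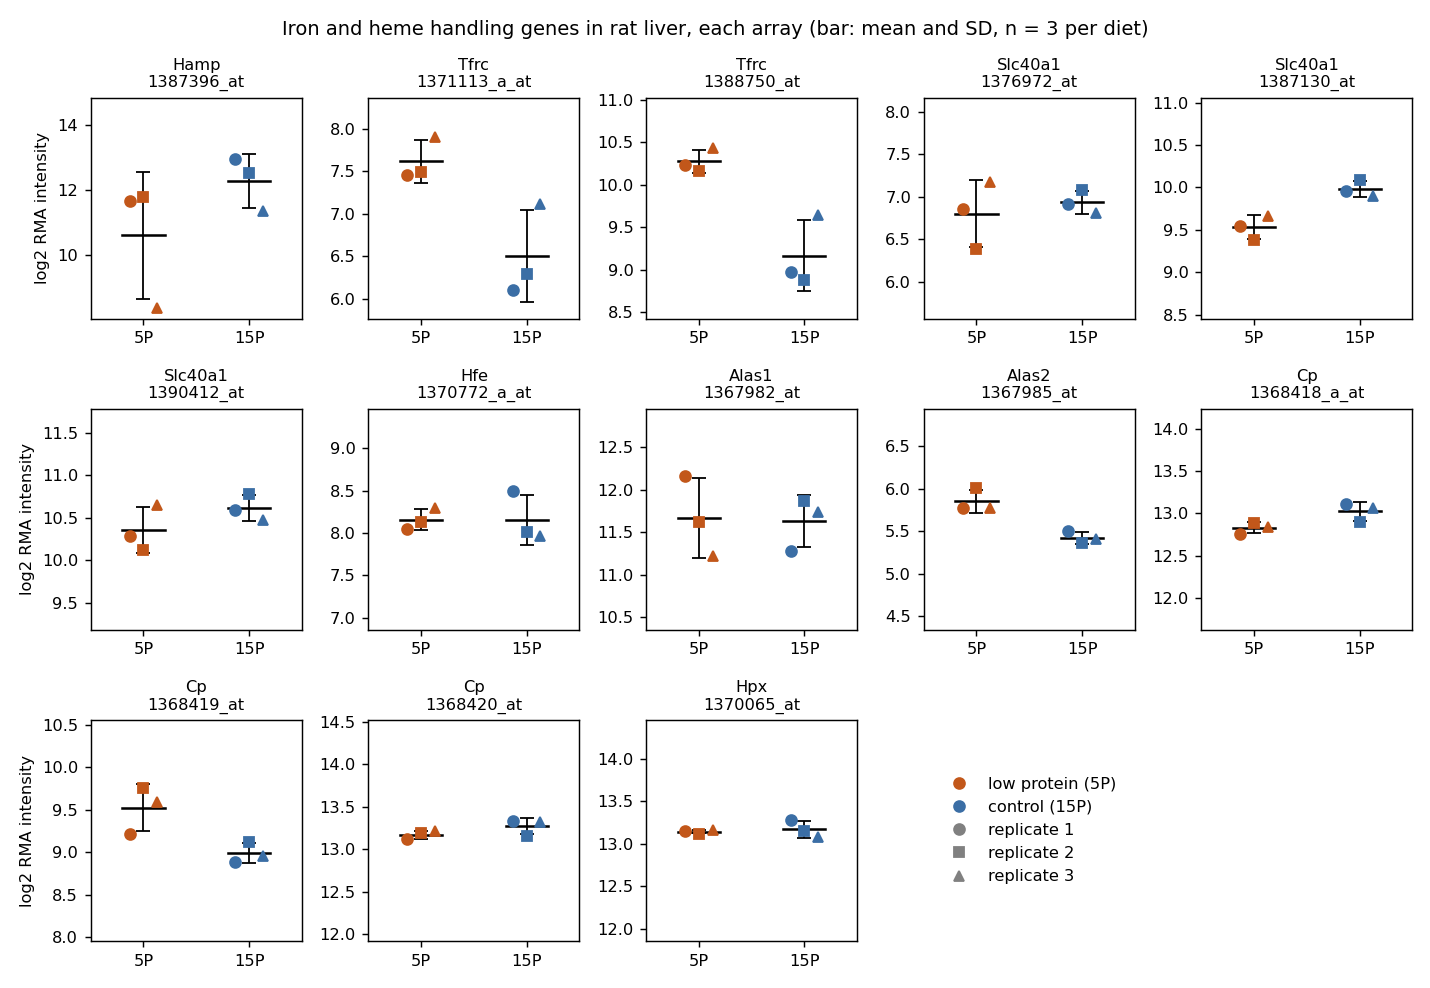
Log2 RMA intensity of each of the 13 probe sets on each array, with low-protein arrays (5P) left of control arrays (15P), symbols for the replicates, and bars for the mean and SD (n = 3 per diet). The y axes span the same width except for Hamp, where low-protein replicate 3 lies at 8.36, while on both Tfrc probe sets all low-protein arrays lie above all control arrays.

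**Figure D2:**
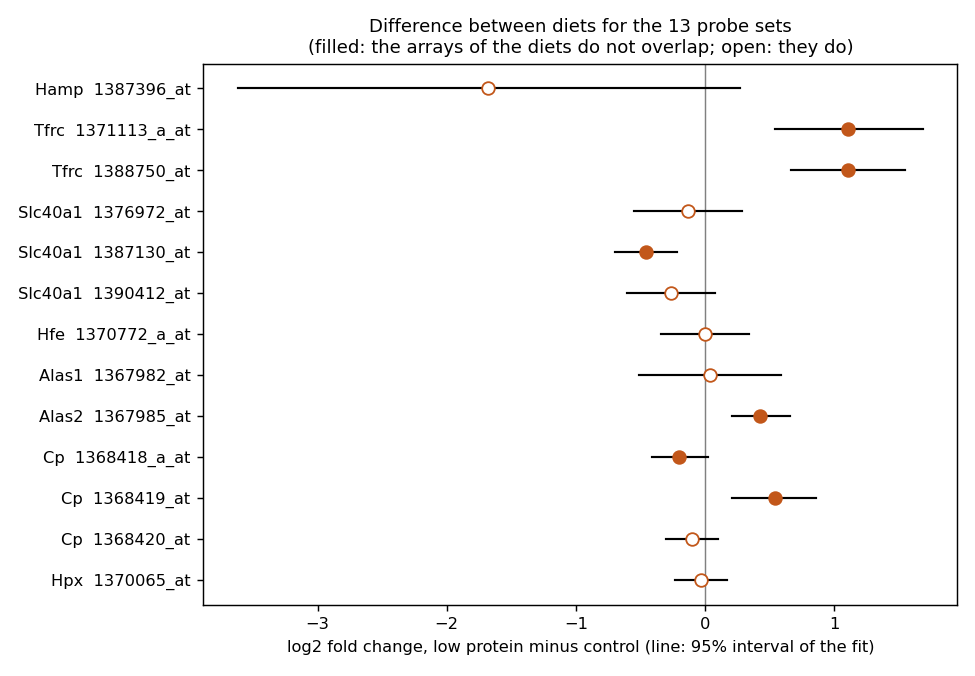
Log2 fold change, low protein minus control, of the 13 probe sets, with the 95% interval of the fit as a line. Both Tfrc probe sets lie at 1.11 with intervals above 0, and the interval of Hamp, from -3.62 to 0.27, is the widest.

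Tfrc carries transferrin-bound iron into the cell. On probe set 1388750_at it read 10.24, 10.16 and 10.43 in low-protein livers and 8.97, 8.88 and 9.65 in control livers. All low-protein arrays were higher than all controls, and control replicate 3 was the highest control. The means were 10.28 ± 0.14 in low-protein livers and 9.17 ± 0.42 in control livers (SD, n = 3 each), a log2 difference of 1.11 (SE 0.192), or 2.16-fold with an interval of 1.59 to 2.93. It ranked at 154 of 31042 by p and did not pass (limma, adjusted p = 0.07). In bulk liver, a difference in the number of cells of a type and one in RNA per cell cannot be told apart.

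The other Tfrc probe set, 1371113_a_at, read 7.46, 7.49 and 7.91 in low-protein livers and 6.10, 6.29 and 7.12 in control livers. The groups again did not overlap, and control replicate 3 again lay nearest to the low-protein arrays. Its log2 difference was also 1.11 (SE 0.251; limma, adjusted p = 0.11). Without control replicate 3 the differences were 1.35 on 1388750_at and 1.42 on 1371113_a_at, and both passed (limma, adjusted p = 0.0182 and 0.0256). Over all other alternatives the first ranged from 0.97 to 1.17 and the second from 0.91 to 1.19, and the first also passed with array weights (adjusted p = 0.0443). With any other single array left out, neither passed (limma, adjusted p of 0.134 to 0.193 on 1388750_at and 0.201 to 0.266 on 1371113_a_at). A difference as large as that of Tfrc in either direction was seen for 0.322% of all probe sets.

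Among 110 other genes of the iron, heme and red blood cell lists, the profile over the 6 arrays most like that of Tfrc belonged to Tmem14c (Pearson r = 0.987), followed by Fdx1 (0.927) and Hbb (0.918). These values describe 6 arrays that share their processing and differ in diet, so any gene that differs between diets scores high. Tmem14c, a mitochondrial protein needed for heme synthesis in developing red blood cells of mice, read 10.94, 10.94 and 10.97 in low-protein livers and 10.48, 10.46 and 10.65 in control livers. Its groups did not overlap, and the log2 difference was 0.42 (SE 0.0887; limma, adjusted p = 0.0982).

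Hamp encodes hepcidin, the hormone that limits the release of iron into plasma. Its single probe set read 11.67, 11.79 and 8.36 in low-protein livers and 12.96, 12.54 and 11.35 in control livers. Low-protein replicate 3 lay far below every other array, and control replicate 3 lay below the other 2 low-protein arrays, so the groups overlapped. The means were 10.61 ± 1.95 in low-protein livers and 12.28 ± 0.83 in control livers (SD, n = 3 each). The log2 difference was -1.68 (SE 0.85), with an interval from -3.62 to 0.27, and it did not pass (limma, adjusted p = 0.387). Without low-protein replicate 3 it was -0.55, and over the other left-out arrays it ran from -2.27 to -1.34.

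The spread of Hamp within a diet was wide beside other transcripts. Its low-protein arrays spanned 3.44 on the log2 scale, a width that 11 probe sets of 31042 reached or passed, where the median was 0.22. Its control arrays spanned 1.61, a width that 108 reached or passed, where the median was 0.23. Low-protein replicate 3 also carried the highest value of 6 of 8 Kupffer cell and macrophage markers, with a summed intensity of 5515, against 3871 and 4014 on the other low-protein arrays and 3218 to 4093 on the control arrays. The same array had the highest summed stellate cell markers (2639, with 5 of 8 genes highest there), against 1731 and 2092 on the other low-protein arrays and 1807 to 2170 on the control arrays. It also had the highest summed sinusoidal endothelial cell markers (2232, with 4 of 6 genes highest there), against 1610 and 1957 on the other low-protein arrays and 1776 to 2147 on the control arrays. Over 9 hepatocyte markers, the mean log2 value minus the control mean was lowest on this array, at -0.194. It was -0.00597 and -0.0396 on the other low-protein arrays and -0.0787 to 0.057 on the control arrays. The marker Tat weighed on this mean, at 8.49 on low-protein replicate 3, 9.82 and 9.48 on the other low-protein arrays and 9.06 to 9.91 on the control arrays. Of the 9 markers, 2 were highest on low-protein replicate 3. The summed hepatocyte markers were 93398 there, against 93882 and 94681 on the other low-protein arrays and 95061 to 97614 on the control arrays. Summed cholangiocyte markers (294) and neutrophil markers (148) on low-protein replicate 3 lay within the control arrays (263 to 425 and 107 to 232). Both were above the other low-protein arrays, at 233 and 212 for cholangiocyte markers and 128 and 112 for neutrophil markers. The part of any of these cell types in the Hamp value was not tested. The Kupffer cell marker Clec4f read 10.50, 10.61 and 11.23 in low-protein livers and 10.61, 10.50 and 10.34 in control livers.

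Of 23 measured genes of hepcidin control, Hamp and Hfe included, none passed (0.183% of all genes did, 0.0633% higher and 0.12% lower), 9 were higher and 14 lower, with a median of -0.10 beside 0.03 for all genes. Creb3l3, a liver transcription factor of fasting that acts on the Hamp promoter in mice, read 11.68, 11.57 and 11.72 in low-protein livers and 10.94, 11.39 and 11.30 in control livers. It was higher on every low-protein array, with a log2 difference of 0.45 (SE 0.128; limma, adjusted p = 0.171). Its part in the Hamp values was not tested. Smad7, an inhibitor of BMP signalling that BMP signals induce, read 6.44, 6.73 and 6.35 in low-protein livers and 6.95, 7.03 and 6.76 in control livers. Smad4, the shared mediator of BMP signals, read 8.34, 8.41 and 8.42 in low-protein livers and 8.58, 8.71 and 8.71 in control livers. Both were lower on every low-protein array, at -0.40 (SE 0.123) and -0.28 (SE 0.0862), and neither passed (limma, adjusted p = 0.19 and 0.194).

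For every other gene of the list, Hamp included, the arrays of the diets overlapped. Smad1, a mediator of BMP signals, had a log2 difference of -0.31 (SE 0.145), the BMP ligand gene Bmp2 -0.30 (SE 0.169) and the activin and BMP receptor gene Acvr2a -0.22 (SE 0.111). Hjv, the hepatocyte BMP co-receptor hemojuvelin, had a log2 difference of 0.32 (SE 0.158), Tfr2, the second transferrin receptor, -0.05 (SE 0.0958), the BMP ligand gene Bmp6 0.03 (SE 0.0856) and the BMP target Id1 0.01 (SE 0.148). Hfe read 8.05, 8.13 and 8.29 in low-protein livers and 8.49, 8.01 and 7.96 in control livers. Its groups overlapped fully, and the log2 difference was 0.00 (SE 0.148), with an interval from -0.34 to 0.34.

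Inflammation also raises Hamp, through interleukin 6 and STAT3. Of 15 measured acute phase genes, which include Hamp, Hpx and Cp, none passed and 13 were lower, with a median of -0.10. Over all genes, 57.6% were higher and the median was 0.03. The list holds Alb and Ttr, whose levels drop in inflammation, at 0.00 and -0.02; of the other 13, 12 were lower, with a median of -0.12. A2m and Crp had log2 differences of -0.62 (SE 0.15) and -0.52 (SE 0.144). Hp, the hemoglobin scavenger haptoglobin, had -0.03 (SE 0.0797), and Socs3, a target of STAT3, had 0.14 (SE 0.105). Alb, Ttr and Hp were among the brightest probe sets, and whether such bright signal still follows RNA was not tested. Socs3 was dimmer than the median probe set. Over the 12 genes left without Hamp, Alb and Ttr, the mean log2 value minus the control mean was -0.152, -0.219 and -0.0993 on the low-protein arrays and 0.141, -0.0347 and -0.107 on the control arrays. Low-protein replicate 3, the lowest array for Hamp, was thus the highest low-protein array for these genes, and control replicate 3 was the lowest control for both.

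**Figure D3:**
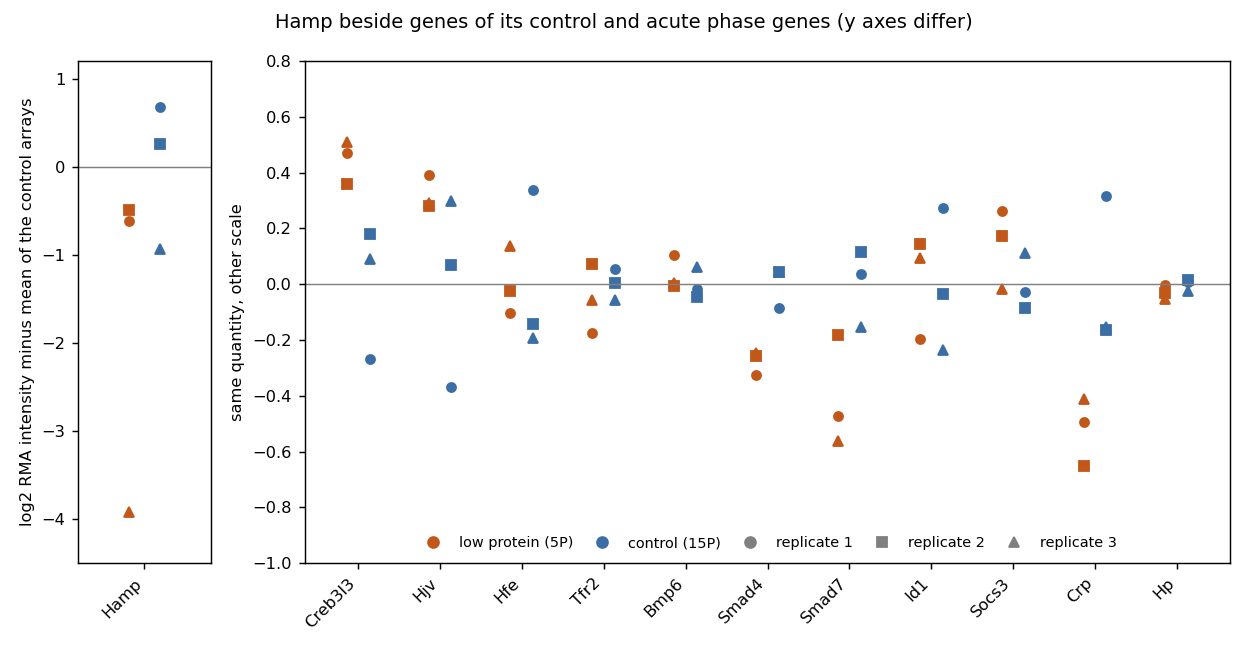
Log2 RMA intensity minus the mean of the control arrays on each array, low-protein arrays (5P) left of control arrays (15P) for each gene, for Hamp on its own scale and for genes of its control and acute phase genes. Low-protein replicate 3 lies at -3.92 for Hamp, while every array lies between -0.65 and 0.51 for the 11 other genes drawn.

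Slc40a1 encodes ferroportin, the iron exporter. Its 3 probe sets were all lower on average in low-protein livers, and 1 of them did not overlap. Probe set 1387130_at read 9.55, 9.38 and 9.66 in low-protein livers and 9.96, 10.09 and 9.90 in control livers. All low-protein arrays were below all controls, with a log2 difference of -0.46 (SE 0.104), and it did not pass (limma, adjusted p = 0.111). The brightest probe set, 1390412_at, read 10.29, 10.12 and 10.65 in low-protein livers and 10.59, 10.78 and 10.47 in control livers. Low-protein replicate 3 lay within the controls, and the log2 difference was -0.26 (SE 0.148; limma, adjusted p = 0.44), or -0.41 with low-protein replicate 3 left out and -0.14 with low-protein replicate 2 left out. On 1376972_at it was -0.13 (SE 0.185), with 0.08 when low-protein replicate 2 was left out and -0.31 when low-protein replicate 3 was. Macrophages also carry ferroportin. Low-protein replicate 3, the array with the highest summed Kupffer, stellate and sinusoidal endothelial cell markers, was the highest low-protein array on all 3 Slc40a1 probe sets, and the part of these cells was not tested.

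Cp encodes ceruloplasmin, which oxidises iron as it leaves the cell and which exists as a secreted and a membrane-anchored form made by alternative splicing. Its 3 probe sets did not move one way. Probe set 1368419_at read 9.22, 9.76 and 9.59 in low-protein livers and 8.89, 9.12 and 8.95 in control livers. All low-protein arrays were higher, with a log2 difference of 0.54 (SE 0.143; limma, adjusted p = 0.152). Probe set 1368418_a_at read 12.76, 12.89 and 12.84 in low-protein livers and 13.11, 12.90 and 13.07 in control livers. All low-protein arrays were lower there, by a narrow margin, with a log2 difference of -0.20 (SE 0.094; limma, adjusted p = 0.359). The brightest, 1368420_at, had -0.10 (SE 0.0888) with overlapping groups, or -0.15 without control replicate 2. By brightness, 1368418_a_at and 1368420_at stood at the 99.7 and 99.8 percentiles of all probe sets, and 1368419_at at 92.7. Whether the brightest signals still follow RNA was not tested, and neither was the part of splicing.

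The difference between the Cp probe sets was tested on the ratio of their intensities within each array, for 3 pairs. The ratio of 1368419_at to 1368420_at was higher in low-protein livers by 0.64 on the log2 scale, and higher on 3 of 3 low-protein arrays than on any control array. An exact two-sided permutation test gave p = 0.1, the smallest that 3 arrays against 3 allow, and 0.1 after Benjamini-Hochberg adjustment over the 3 pairs. The same p was reached for 1368419_at against 1368418_a_at (0.73) and for 1368418_a_at against 1368420_at (-0.10). With every pair at the smallest possible p, the test cannot separate the pairs, which also share probe sets. Heph, the membrane ferroxidase of the gut related to Cp, was dim and had -0.06 (SE 0.0788), so that of 3 measured export and ferroxidase genes all 3 were lower by their brightest probe set and none passed.

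Alas2 encodes the erythroid form of the first heme synthesis enzyme. It read 5.77, 6.01 and 5.78 in low-protein livers and 5.50, 5.36 and 5.41 in control livers. All low-protein arrays were higher, with low-protein replicate 2 the highest. The probe set stood at the 58.3 percentile of brightness, not far above the median probe set. The means were 5.86 ± 0.14 in low-protein livers and 5.42 ± 0.07 in control livers (SD, n = 3 each), a log2 difference of 0.43 (SE 0.0992), or 1.35-fold, which did not pass (limma, adjusted p = 0.112). The difference ran from 0.36 to 0.48 over the alternatives. In its likeness to the listed genes, Alas2 came nearest to Bach1 (r = 0.954 over 6 arrays), a heme-binding repressor, then Nubp2 (0.946) and Hbb (0.908). Bach1 was dimmer than the median probe set.

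Red blood cell and erythroid markers stood beside it. Of 14 measured markers 12 were higher, none passed, and the median was 0.11. Over all genes, 57.6% were higher and the median was 0.03. The arrays of the diets did not overlap for 2 of the 14, against 22.9% of all genes. The beta-globin gene Hbb read 11.94, 12.03 and 12.00 in low-protein livers and 11.43, 11.55 and 11.56 in control livers. Its groups did not overlap either, with a log2 difference of 0.48 (SE 0.0856; limma, adjusted p = 0.0739). The summed intensity of the 14 markers was 4672 to 4960 in low-protein livers and 3415 to 3729 in control livers. Without Hbb, which made up most of it, the sum overlapped, at 639 to 780 in low-protein livers and 656 to 717 in control livers.

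Of the 14 erythroid markers 11 were dimmer than the median probe set, and no RMA value is 0. The defining transcription factor genes of erythroid precursors, Gata1 and Klf1, had log2 differences of 0.01 (SE 0.163) and 0.15 (SE 0.104). Ahsp, the chaperone of alpha-globin, had 0.32 (SE 0.142), and Hemgn, a nuclear protein of blood precursors, had 0.32 (SE 0.125). Sptb, which encodes the beta-spectrin of the red cell membrane skeleton, had 0.23 (SE 0.106), and its groups did not overlap. The membrane protein gene Slc4a1 had 0.14, and the only lower markers were Epb42 and Ank1 at -0.06 and -0.08. The part of red blood cells in the Alas2 difference was not tested.

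**Figure D4:**
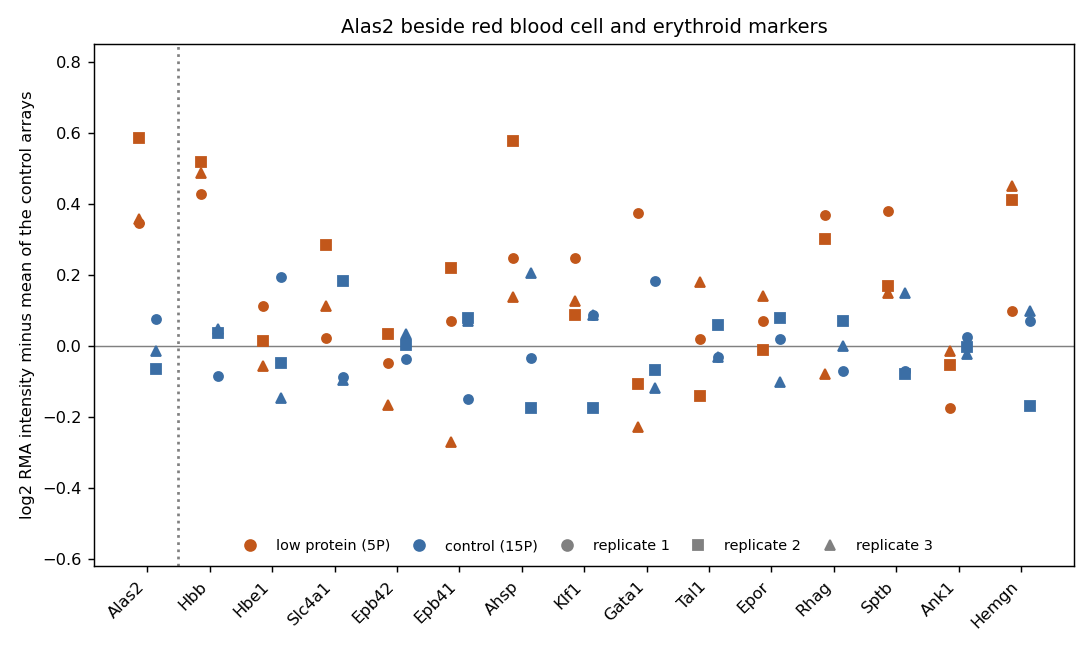
Log2 RMA intensity minus the mean of the control arrays on each array, low-protein arrays (5P) left of control arrays (15P) for each gene, for Alas2 and 14 red blood cell and erythroid markers. On Alas2 and Hbb all low-protein arrays lie above all control arrays, and for Epb42, Gata1 and Tal1 they overlap.

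Alas1, the form that supplies heme for cytochromes P450 in hepatocytes, read 12.16, 11.62 and 11.22 in low-protein livers and 11.28, 11.87 and 11.74 in control livers. The low-protein arrays held both the highest and the lowest value of the 6. The log2 difference was 0.04 (SE 0.239), with an interval from -0.51 to 0.59, and it turned to -0.21 without low-protein replicate 1 and to -0.14 without control replicate 1. Of the listed genes its profile was most like that of Foxo1 (r = 0.899 over 6 arrays), the fasting-activated transcription factor, which read 7.54, 7.38 and 7.03 in low-protein livers and 6.79, 7.49 and 7.30 in control livers. Of 7 measured regulators of Alas1 none passed. Nr1d1, a clock repressor, had -0.42 (SE 0.167), and Ppargc1a, the fasting coactivator that raises Alas1 in mice, had -0.44 (SE 0.218; -0.28 without low-protein replicate 1).

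Of 8 measured heme synthesis enzymes, Alas1 and Alas2 included, 5 were higher, 3 lower and none passed, with a median of 0.07. Ppox, which makes protoporphyrin in the mitochondrion, read 7.16, 7.05 and 7.16 in low-protein livers and 7.40, 7.73 and 7.42 in control livers. It was lower on every low-protein array, at -0.39 (SE 0.111; limma, adjusted p = 0.167). Alad, the second enzyme of the pathway, had 0.22 (SE 0.106), and Fech, which inserts the iron, had -0.08 (SE 0.1).

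Hpx read 13.15, 13.12 and 13.16 in low-protein livers and 13.28, 13.15 and 13.08 in control livers. The groups overlapped, and the log2 difference was -0.03 (SE 0.0884), with an interval from -0.23 to 0.17. Its low-protein arrays spanned 0.04, and 97.7% of all probe sets spanned as much or more. Hpx stood at the 99.8 percentile of brightness, and whether signal that bright still follows RNA was not tested. In heme breakdown, none of 5 measured genes passed. Hmox1, the inducible heme oxygenase, had -0.07 (SE 0.12), and Blvra, the biliverdin reductase of the next step, read 7.65, 7.73 and 7.91 in low-protein livers and 7.41, 7.38 and 7.33 in control livers. Blvra was higher on every low-protein array, at 0.39 (SE 0.096; limma, adjusted p = 0.138). Hmox2, the constitutive oxygenase, and Bach1 had -0.19 (SE 0.0932) and 0.26 (SE 0.0879).

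The proteins that read cellular iron had no gene that passed. Of 5 measured genes of iron regulatory proteins and their control, 2 were higher and 3 lower, with a median of -0.14. Fbxl5, which marks iron regulatory protein 2 for degradation when iron is present, read 8.51, 8.18 and 8.39 in low-protein livers and 8.59, 8.80 and 8.63 in control livers. It was lower on every low-protein array, at -0.31 (SE 0.112; limma, adjusted p = 0.245). Ireb2 and Aco1, which encode the iron regulatory proteins, had -0.30 (SE 0.141; -0.18 without low-protein replicate 1) and -0.14 (SE 0.111; -0.05 without control replicate 2 and -0.22 without control replicate 1). Of 15 measured uptake and reduction genes, 6 were higher and 9 lower, and besides Tfrc at 1.11 the smallest p-values were those of the ferrireductase Steap4 at -0.26 (SE 0.134; -0.15 without control replicate 2) and the hemopexin receptor Lrp1 at -0.16 (SE 0.0971; -0.10 without low-protein replicate 2). Of 5 measured storage and chaperone genes the nearest was Ncoa4, which delivers ferritin to the lysosome, at -0.27 (SE 0.147; -0.12 without control replicate 2 and -0.41 without control replicate 1).

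Iron-sulfur clusters are built in the mitochondrion and the cytosol, and no gene of their assembly passed. Of 15 measured genes 14 were higher, with a median of 0.15 beside 0.03 for all genes, of which 57.6% were higher. Groups did not overlap for 6 on the higher side and 1 on the lower side, against 12.8% and 10.1% of all genes. The ferredoxin Fdx1, a mitochondrial electron carrier, read 10.39, 10.38 and 10.61 in low-protein livers and 10.14, 10.03 and 10.16 in control livers, a log2 difference of 0.35 (SE 0.0986; limma, adjusted p = 0.166). The chaperone Hscb and the cytosolic assembly factor Nubp2 had 0.25 (SE 0.0879) and 0.26 (SE 0.0915). The member that did not follow was Nfs1, the cysteine desulfurase that supplies the sulfur, at 10.40, 10.36 and 10.07 in low-protein livers and 10.60, 10.41 and 10.64 in control livers. Among 12 measured heme and porphyrin transport genes 7 were higher and 5 lower; besides Tmem14c, Hebp1, a heme-binding protein, had -0.34 (SE 0.102) and Flvcr2, a gene of the FLVCR transporter family, had 0.35 (SE 0.177; 0.53 with low-protein replicate 1 left out, 0.23 with low-protein replicate 2 left out).

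Over the 10 lists together, 97 genes were measured, 51 higher and 46 lower, and none passed; 17 had an unadjusted p under 0.05 by limma, against 16.4% of all genes. Groups did not overlap for 22.7% of the 97, against 22.9% of all genes. Only Tfrc among the 97 passed under any alternative that was run.

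**Figure D5:**
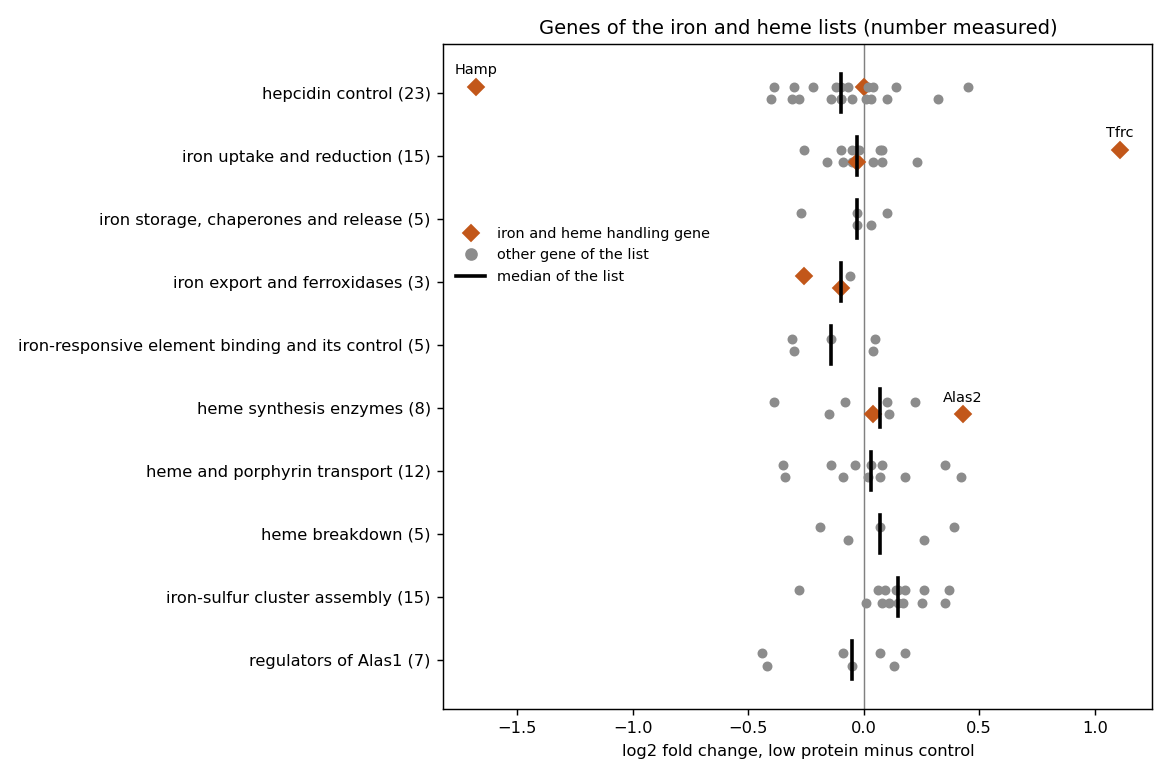
Log2 fold change, low protein minus control, of each measured gene of the 10 iron and heme lists by its brightest probe set, with diamonds for the iron and heme handling genes, circles for other genes and a black bar for the median of a list. Hamp at -1.68 and Tfrc at 1.11 lie outside the range of all other genes drawn, which fall between -0.44 and 0.45.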

How the data were processed

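RNA of 6 liver samples was labelled with a 3' IVT kit and hybridised to Affymetrix rat arrays (labels' protocols). The table the authors deposited holds a single RMA intensity for every probe set on every array, per the submitters' processing notes. For the software version and genome build, the sources used here give nothing. Deposited values lay between 3.61 and 21668, a linear scale, and log2 was taken before every test. Since RMA sets the arrays to a common distribution, a shift of most transcripts together cannot be seen. Arrays have no read depth, and their number limits the precision.

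Samples were grouped by their titles. Of 31099 probe sets 57 controls were left out; 20826 had 1 symbol (14217 genes), 436 several, and 9780 were unnamed here. Gene IDs of the genes used matched RefSeq (GRCr8) for 159 of 160, with the same symbol for all 159. The test of low protein against control was two-sided and came from limma (version 3.58.1, R 4.3.3; functions lmFit, then eBayes; 8.38 degrees of freedom), adjusted over all 31042 probe sets. A gene of a list was its probe set of highest mean. On simulated data of the same size (normal, independent values with 200 of the 31042 probe sets changed) the fit recovered 97 of 100 changes of 1 and 99 of 100 changes of 2 on the log2 scale, with 10 false calls. The simulated noise used the spread of each probe set after limma's borrowing, and the changed probe sets were drawn at random. The recovery therefore does not hold for probe sets more variable than most, such as those of Hamp (SE 0.85), Tfrc (SE 0.192 and 0.251) and Alas1 (SE 0.239).

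The members and the lists were chosen with earlier results of these data known. The named genes are all member probe sets and, in each iron and heme list, the 3 of smallest p. Genes outside this rule, named for their role after their values were seen, are Smad1, Bmp2, Acvr2a, Hjv, Tfr2, Bmp6, Id1, Socs3, Fech, Hmox1, Nfs1, Foxo1 and the acute phase and marker genes. The alternatives were other prior variances, 3 rescalings, 2 brightness filters, weights on arrays, a block for the replicate number, leaving out each array in turn, and 2 other ways to take a gene. Same-numbered arrays of the 2 diets did not deviate together (correlations of -0.0874, -0.0272 and -0.102), so no block was used. Plots come from matplotlib 3.10.9 (Python 3.11.15).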

Additional observations from a re-analysis of the deposited data

How the results depend on the processing

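Of 195 values of the 13 member probe sets under 15 alternatives, 182 kept their direction and their side of the threshold. Tfrc passed in 3: 1388750_at with array weights (1.17) and both probe sets without control replicate 3 (1.35 and 1.42). The count of passing member probe sets was therefore 1 with array weights and 0 to 2 over the left-out arrays, and the count of passing list genes was 1 with array weights and 0 to 1 over the left-out arrays, where the main counts were 0. The gene was Tfrc each time. The other 10 values changed sign, each near 0: Hfe to -0.03 with median centring, -0.04 with array weights, -0.07 without low-protein replicate 3 and without control replicate 2, and -0.10 without control replicate 3; Alas1 to -0.21 without low-protein replicate 1 and -0.14 without control replicate 1; Hpx to 0.02 with 75th percentile centring and 0.03 without control replicate 1; and Slc40a1 1376972_at to 0.08 without low-protein replicate 2. Over the left-out arrays Hfe ran from -0.10 to 0.17, Alas1 from -0.21 to 0.26, and Slc40a1 1376972_at from -0.31 to 0.08. Of 26 other named genes, Slc25a37, Pcbp1 and Nr1i3 changed sign without control replicate 1, to -0.05, -0.03 and -0.08 (0.10, 0.03 and 0.18 with all arrays, and at most 0.18, 0.07 and 0.37 with another array left out). The cause was not tested.

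Over all probe sets 41 passed, and 103 with the robust prior variance, 78 with median centring, 102 with array weights, 6 with the replicate block, and 16 to 109 over the left-out arrays, with 109 without control replicate 3. With the replicate block no member passed, and Tfrc had an adjusted p = 0.103 on both probe sets. Rescaling moved the median difference of all probe sets by at most 0.0489. The control arrays of Tfrc spanned 0.77 on 1388750_at, where the median probe set spanned 0.23 in control livers. A p that misses the threshold does not show that the diets were alike.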
